A study of Mus musculus with 6 samples.

Results

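D-type cyclins, the kinases they activate and the inhibitors of those kinases were followed here in mouse embryonic stem cells with reduced Rsl24d1. The genes were picked by symbol, with earlier results of these data known: the cyclins Ccnd1, Ccnd2 and Ccnd3, the kinases Cdk4 and Cdk6, the CIP/KIP inhibitors Cdkn1a (p21), Cdkn1b (p27) and Cdkn1c (p57), and the INK4 inhibitors Cdkn2c (p18) and Cdkn2d (p19). All 10 were among the 22332 symbols of the count table, and all 10 passed the filter on low counts. The cells were CGR8, a mouse embryonic stem cell line, grown on gelatin with fetal bovine serum and LIF, a cytokine that keeps such cells pluripotent. They were transfected with a pool of non-targeting siRNAs (siCtrl, n = 3) or a pool of siRNAs against Rsl24d1 (siRSL24D1, n = 3), and their RNA, freed of ribosomal RNA, was sequenced 48 hours after transfection. Both groups had therefore received siRNA, untransfected cells were not analysed here, and all libraries came from the same line. The study's design text describes the triplicates as independent.

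A D-type cyclin binds CDK4 or CDK6, and the active kinase phosphorylates the retinoblastoma protein and its relatives, which releases E2F transcription factors and opens the way to DNA synthesis. INK4 proteins bind CDK4 and CDK6 alone and keep cyclins off them, while CIP/KIP proteins bind whole cyclin-kinase complexes, block those with CDK2 and can help those with cyclin D to assemble. Mouse embryonic stem cells are known for a short G1 phase, little cyclin D-dependent kinase activity and a high activity of cyclin E with CDK2.

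Library totals lay between 30943635 and 35214000 estimated counts. Rsl24d1, which encodes a factor in the assembly of large ribosomal subunits, was at 97.9 to 102.7 CPM (counts relative to the TMM-scaled library total) in siCtrl and at 52.1 to 55.6 CPM in siRSL24D1, so the knockdown was partial (log2 fold change -0.89, edgeR adjusted p = 2.0e-05). The marker counts that follow stand beside 21.2% of all genes tested that rose and 20.0% that fell, at an edgeR adjusted p under 0.05. Of 14 pluripotency markers, 2 rose (Zfp42 and Tbx3) and 7 fell. The number that fell was 4 without siCtrl 2 or without siRSL24D1 3. Without both siCtrl 3 and siRSL24D1 2, 9 of these markers fell and 4 rose. The summed level of all 14 was 3416 to 3772 CPM in siCtrl and 2939.9 to 3051 CPM in siRSL24D1. Most of that fall lay in Dppa5a (mean 1158 CPM in siCtrl and 836 in siRSL24D1) and Tdgf1 (668 and 434). Nanog fell from a mean of 247 to 176 CPM (log2 fold change -0.49, edgeR adjusted p = 0.00019). Fgf4, Tfcp2l1, Esrrb and Utf1 were the other markers that fell, at log2 fold changes of -0.55, -0.27, -0.17 and -0.16. Pou5f1 averaged 482 CPM in both groups, and Sox2 120.9 and 127.9 CPM, and neither was called. Neuroectoderm markers summed to 252 to 262 CPM in siCtrl and 344 to 409 CPM in siRSL24D1 (3 of 6 tested rose). Nes alone averaged 211 and 301 CPM of that sum, while Pax6 (1.37 and 1.22 CPM) and Sox1 (1.49 and 1.91 CPM) were not called. Mesoderm markers summed to 137.8 to 147 and 184 to 202 CPM (4 of 6 rose), of which T alone averaged 114 and 148 CPM. Trophoblast markers, of which Krt8 and Krt18 made up most, summed to 1709.9 to 1788 and 2197 to 2697 CPM (4 of 6 rose), endoderm markers to 6.70 to 8.26 and 9.04 to 10.2 CPM (2 of 4 rose), and fibroblast markers to 126 to 159 and 123 to 147 CPM (1 of 7 rose, or 2 without siCtrl 3, and 2 fell). The endoderm count was 0 without siCtrl 2 and in the DESeq2 test, and 1 with upper-quartile scaling, with limma-voom and when siCtrl 1, siCtrl 3, siRSL24D1 1 or siRSL24D1 3 was left out. By log2 fold change Cdx2 rose by 1.58 and Hand1 by 0.75 (trophoblast), Neurod1 by 1.58 and Tubb3 by 1.08 (neuroectoderm), and Gata4 by 0.54 and Gata6 by 0.50 (endoderm). From the same lists, Neurog2, Afp, Ttr and Elf5 were at 0 to 0.241 CPM in every library. The part of these marker shifts in the results on the cell cycle genes was not tested, and in bulk RNA fewer cells of a type and less RNA per cell cannot be told apart. Within the groups, siCtrl 3 and siRSL24D1 2 stood apart: the chi-square per degree of freedom was 2.68 between siCtrl 1 and 2 but 18.6 and 14.1 against siCtrl 3, and 4.15 between siRSL24D1 1 and 3 but 12.2 and 14.9 against siRSL24D1 2.

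Of the 10 genes, 5 rose (Ccnd2, Cdkn1a, Ccnd1, Cdk6 and Cdk4) and 3 fell (Cdkn1b, Cdkn2d and Ccnd3) in siRSL24D1, each at an adjusted p under 0.05 by the quasi-likelihood test of edgeR. Over all 15084 genes tested, 21.2% rose and 20.0% fell, 41.2% in either direction, so a call in this comparison is common. The median log2 fold change was 0.16 over the 10 genes and 0.02 over all genes tested. The 3 siRSL24D1 libraries did not overlap the 3 siCtrl libraries for 8 of the 10 genes (5 higher, 3 lower), as for 53.0% of all genes (26.8% higher, 26.2% lower). Ccnd2 alone lay outside the range that holds the 5th to 95th percentile of all genes, -0.67 to 0.72 on the log2 scale, with Cdkn1b just inside its lower end. The cyclins and the CIP/KIP inhibitors each held members that moved in opposite directions: 2 cyclins rose and 1 fell, and 1 CIP/KIP inhibitor rose and 1 fell.

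**Figure D1:**
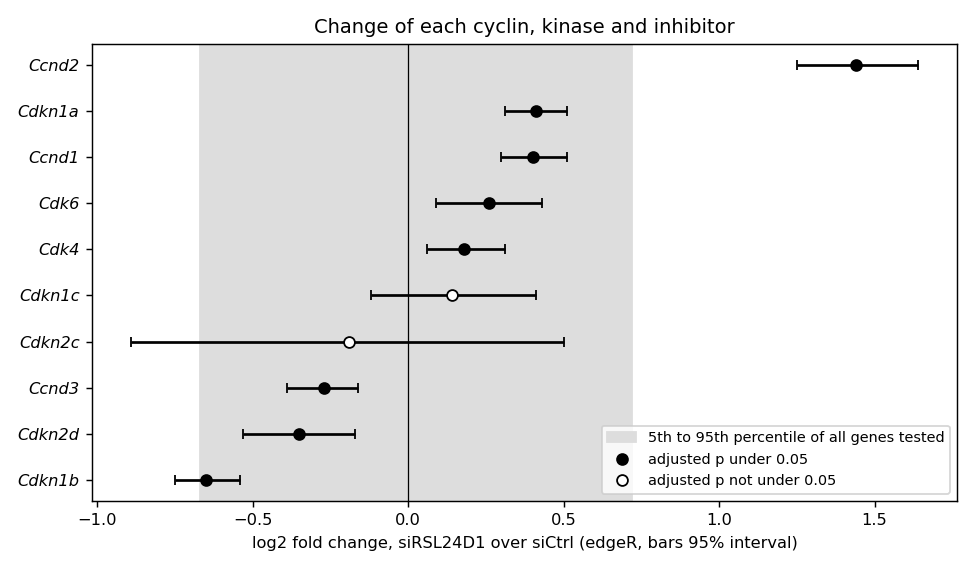
Log2 fold change of each gene, siRSL24D1 over siCtrl (x axis), with 95% intervals from edgeR as bars; filled points passed an adjusted p of 0.05, and the grey band holds the 5th to 95th percentile of all genes tested. Ccnd2 at 1.44 lies beyond the band, Cdkn1b at -0.65 lies near its lower edge, and the intervals of Cdkn1c and Cdkn2c include 0.

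The cyclins differed in size and direction. Ccnd2 (chromosome 6, 127125162 to 127152193, minus strand, GRCm38) was at 17.8, 19.0 and 22.4 CPM in siCtrl 1 to 3 and at 53.5, 51.5 and 56.5 CPM in siRSL24D1 1 to 3. Every siRSL24D1 library was thus more than double any siCtrl library, and siCtrl 3 was the highest of its group. The mean rose 2.72-fold, from 19.8 ± 2.38 to 53.8 ± 2.48 CPM (SD, n = 3 each), a log2 fold change of 1.44 ± 0.08 (standard error; edgeR adjusted p = 2.6e-05). It was number 165 of the 15084 genes ordered from the largest rise, and 1.60% of genes had a larger change in either direction.

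Ccnd1 (chromosome 7, 144929931 to 144939925, minus strand), the D-type cyclin with the highest level in these cells, was at 109.8, 107.3 and 110.02 CPM in siCtrl and at 138.0, 152.5 and 142.5 CPM in siRSL24D1. The groups were apart, with the siCtrl libraries close together and siRSL24D1 2 the highest. Ccnd1 rose 1.32-fold (log2 fold change 0.40, standard error 0.05, edgeR adjusted p = 0.00037), and 24.3% of all genes changed by more. Its annotated exons share 1100 bases, 23.4% of its exon length, with LTO1 on the opposite strand, and the strand setting of the counting is not given in the sources used here. LTO1 itself averaged 14.4 CPM in both groups.

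Ccnd3 (chromosome 17, 47505051 to 47599691, plus strand) went the other way. It was at 83.2, 84.7 and 83.9 CPM in siCtrl and at 70.1, 72.8 and 65.2 CPM in siRSL24D1, so all siCtrl libraries lay above all siRSL24D1 libraries. It fell to 0.827 of its control level (log2 fold change -0.27, standard error 0.05, edgeR adjusted p = 0.0029). Bysl, an assembly factor of the small ribosomal subunit whose exons overlap 361 bases of Ccnd3 on the opposite strand, averaged 48.8 CPM with siCtrl against 62.9 with siRSL24D1, the opposite direction to Ccnd3.

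**Figure D2:**
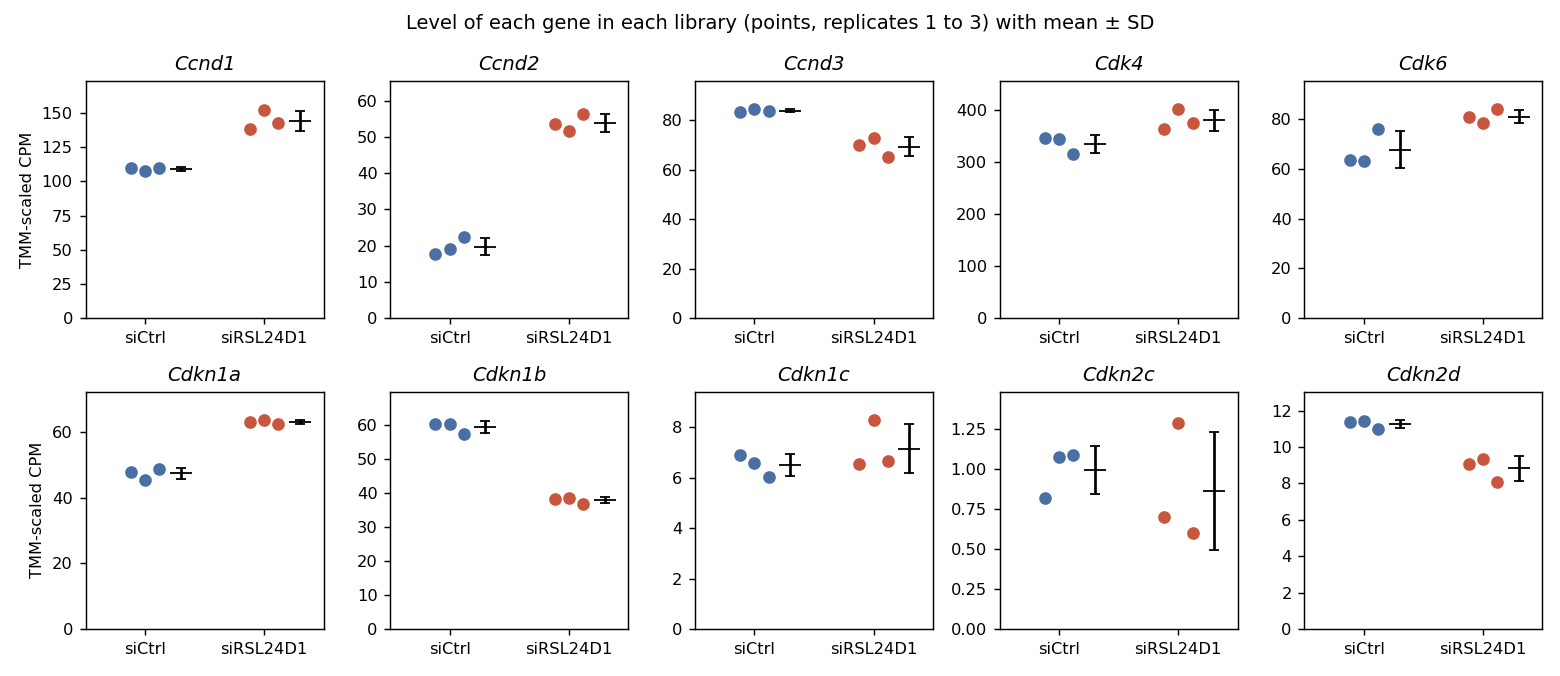
TMM-scaled CPM (y axis, from 0, own scale in each panel) of each gene in the 3 siCtrl and 3 siRSL24D1 libraries; points are replicates 1 to 3 from left to right, and the bar is the mean ± SD. The groups are apart for 8 genes and overlap for Cdkn1c and Cdkn2c.

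The makeup of the cyclin D pool was compared per length, as CPM per kilobase of annotated exon. The 3 cyclins summed to 34.7, 34.5 and 35.3 CPM per kilobase in siCtrl and to 43.0, 46.2 and 43.7 in siRSL24D1, with no overlap. Ccnd2 made up 5.47%, 5.87% and 6.75% of that sum in siCtrl and 13.2%, 11.9% and 13.7% in siRSL24D1. The share of Ccnd3 was 27.3%, 28.0% and 27.1% in siCtrl and 18.6%, 18.0% and 17.0% in siRSL24D1, while that of Ccnd1 was 66.5 ± 0.61% and 69.2 ± 0.99%. Ccnd1 thus remained the main cyclin D transcript by length-scaled level, and Ccnd2 and Ccnd3 came closer to each other. With the longest transcript as the length, Ccnd3 took 40.3 ± 0.59% of the sum in siCtrl and 27.6 ± 1.11% in siRSL24D1, and Ccnd2 5.77 ± 0.63% and 13.1 ± 0.99%. The share of Ccnd3 thus depends on the length chosen, but the direction of its change does not.

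Ratios within a library do not depend on the scaling between libraries. The ratio of Ccnd2 to Ccnd3 counts was 0.214, 0.225 and 0.267 in siCtrl and 0.762, 0.708 and 0.866 in siRSL24D1, a 3.31-fold difference of the means on the log scale. Ccnd2 to Ccnd1 differed 2.07-fold, from 0.162 to 0.204 in siCtrl to 0.338 to 0.396 in siRSL24D1, and Ccnd1 to Ccnd3 differed 1.60-fold. For each of these 3 ratios the groups did not overlap and the two-sided exact permutation test gave p = 0.1, the smallest that 3 against 3 libraries can reach, or 0.12 adjusted over the 6 ratios computed.

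**Figure D3:**
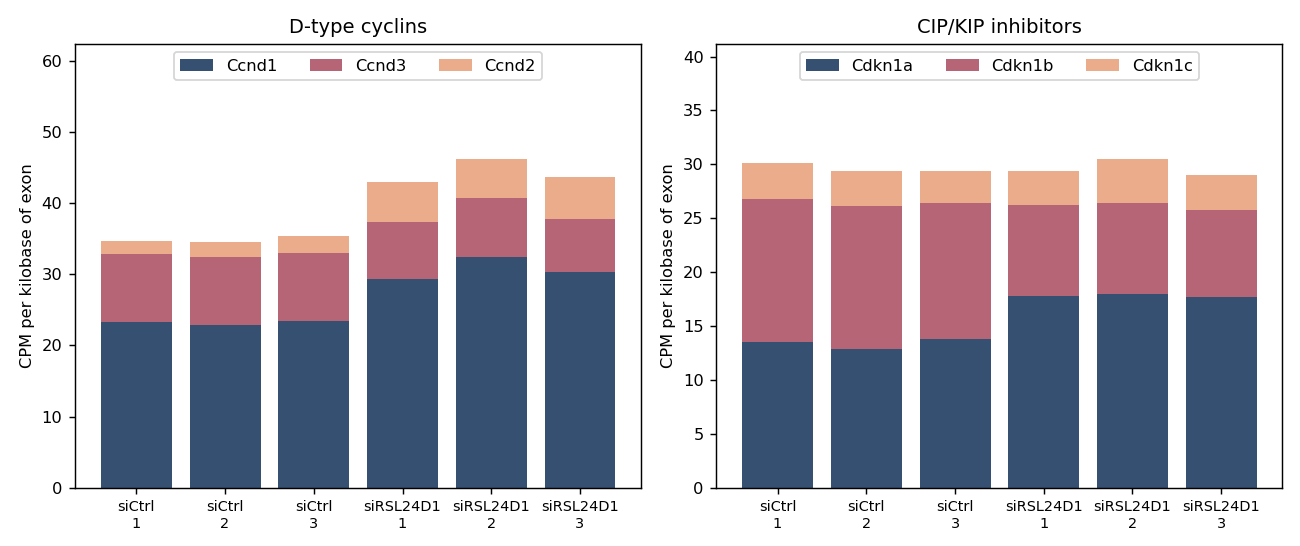
CPM per kilobase of annotated exon (y axis) stacked by gene in each of the 6 libraries, for the D-type cyclins (left) and the CIP/KIP inhibitors (right). The cyclin sum is 34.5 to 35.3 in siCtrl and 43.0 to 46.2 in siRSL24D1, while the CIP/KIP sum is 29.0 to 30.5 over all 6 libraries with more Cdkn1a and less Cdkn1b in siRSL24D1.

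The kinases rose by less than Ccnd1, Ccnd2 and Cdkn1a in the fit of all 6 libraries. Without siCtrl 3 and siRSL24D1 2, the log2 fold changes of Cdk6 (0.36) and Ccnd1 (0.35) were alike. Cdk4 (chromosome 10, 127063534 to 127067920, plus strand), the main catalytic partner of D-type cyclins by level here, was at 345.4, 343.4 and 314.3 CPM in siCtrl and at 363.1, 401.7 and 374.0 CPM in siRSL24D1. The lowest siRSL24D1 library was just above the highest siCtrl library, and the extremes were siCtrl 3 and siRSL24D1 2, the libraries that stood apart. Cdk4 rose 1.14-fold (log2 fold change 0.18, standard error 0.05, edgeR adjusted p = 0.029). Without siCtrl 3 and siRSL24D1 2 its log2 fold change was 0.08 (edgeR adjusted p = 0.073), and without siCtrl 2, siCtrl 3, siRSL24D1 2 or siRSL24D1 3 alone it was 0.13 to 0.20 (adjusted p = 0.059 to 0.079). With upper-quartile scaling it was 0.15 (adjusted p = 0.067). Tspan31, whose exons overlap 641 bases of Cdk4 on the opposite strand, averaged 54.3 CPM with siCtrl against 58.4 with siRSL24D1 (log2 fold change 0.11, adjusted p = 0.13).

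The sequence before the start of Cdk4 is shown because it carries several E-boxes, CACGTG, the binding motif of MYC with MAX, and because Myc and Mycn are among the genes measured below. It comes from RefSeq (chr10:127063285-127063533, plus strand, GRCm38.p6), and capitals mark the E-boxes.
Cdk4: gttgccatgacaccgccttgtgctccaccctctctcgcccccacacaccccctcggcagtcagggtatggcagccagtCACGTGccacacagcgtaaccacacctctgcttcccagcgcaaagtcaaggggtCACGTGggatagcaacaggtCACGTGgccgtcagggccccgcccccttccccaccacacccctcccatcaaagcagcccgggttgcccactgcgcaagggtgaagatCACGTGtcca
The 4 E-boxes begin 172, 118, 98 and 11 bases before the RefSeq start. Of 32851 RefSeq windows from 250 bases before to 50 bases after a start, 7.15% hold CACGTG at least once and 8 windows hold it 4 or more times; the motif reads the same on both strands. Windows were found for 7 of the 10 genes (Cdk4, Cdk6, Ccnd3, Cdkn1a, Cdkn1b, Cdkn2c and Cdkn2d), 10 windows in all, and besides Cdk4 those of Cdk6 and Cdkn2c held 1 E-box each. A match is a description of letters, not of binding.

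Cdk6 (chromosome 5, 3341485 to 3531008, plus strand), the other partner of D-type cyclins, was at 63.4, 63.3 and 76.1 CPM in siCtrl and at 80.7, 78.4 and 83.9 CPM in siRSL24D1. The groups did not overlap, although siCtrl 3 lay within 2.21 CPM of the lowest siRSL24D1 library. Cdk6 rose 1.20-fold (log2 fold change 0.26, standard error 0.07, edgeR adjusted p = 0.024). Without siCtrl 3 its log2 fold change was 0.34 (adjusted p = 0.0010) and without siCtrl 3 and siRSL24D1 2 it was 0.36 (adjusted p = 1.1e-05). Its call did not hold when siCtrl 1, siCtrl 2, siRSL24D1 1 or siRSL24D1 3 was left out (log2 fold changes of 0.21 to 0.26, adjusted p = 0.066 to 0.088), and a correction for transcript length moved it to 0.15 (adjusted p = 0.036). Per kilobase, Cdk4 held 95.5 ± 0.71% of the summed level of both kinases in siCtrl and 95.3 ± 0.35% in siRSL24D1. The ratio of Cdk4 to Cdk6 counts, 4.13 to 5.45 in siCtrl and 4.46 to 5.13 in siRSL24D1, overlapped between the groups (two-sided exact permutation p = 0.8).

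**Figure D4:**
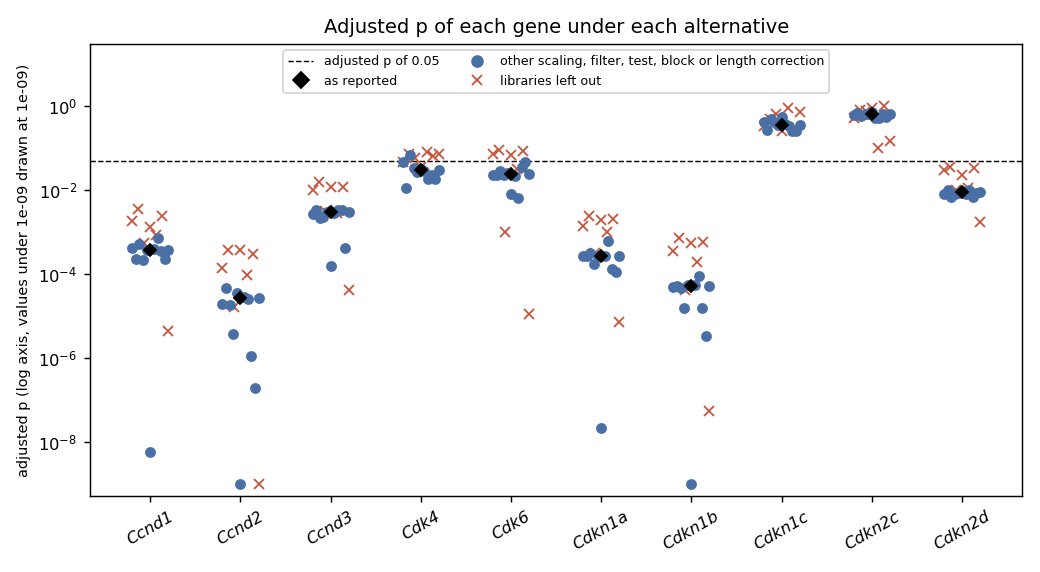
Adjusted p (y axis, log scale, values under 1e-09 drawn at 1e-09) of each gene as reported (diamond), under another scaling, filter, test, block, length correction or without rounding (circles) and with libraries left out (crosses); the dashed line marks 0.05. Cdk4 and Cdk6 straddle the line, with reported values of 0.029 and 0.024, while the other 6 called genes stay below it.

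Among the CIP/KIP inhibitors, Cdkn1b showed the largest change. Cdkn1b (chromosome 6, 134920401 to 134925513, plus strand) encodes p27, which holds cyclin E-CDK2 inactive in resting cells. It was at 60.4, 60.5 and 57.4 CPM in siCtrl and at 38.4, 38.6 and 36.9 CPM in siRSL24D1. The spread within each group was small against the gap between them. Cdkn1b fell to 0.639 of its control level, from 59.4 ± 1.77 to 38.0 ± 0.92 CPM (log2 fold change -0.65, standard error 0.05, edgeR adjusted p = 5.0e-05), and 11.4% of all genes changed by more.

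Cdkn1a (chromosome 17, 29090976 to 29100727, plus strand) encodes p21, the inhibitor through which p53 is best known to stop the cycle in G1. It was at 47.9, 45.6 and 48.9 CPM in siCtrl and at 63.1, 63.8 and 62.7 CPM in siRSL24D1, where the libraries lay within 1.04 CPM of each other. Cdkn1a rose 1.33-fold (log2 fold change 0.41, standard error 0.04, edgeR adjusted p = 0.00026), a size close to that of Ccnd1. Trp53, which encodes p53, rose from 165.3 ± 3.11 to 196.6 ± 9.50 CPM (log2 fold change 0.25, adjusted p = 0.0033).

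The window before the upstream start of Cdkn1a is shown because it holds a p53 response element. It comes from RefSeq (chr17:29090729-29090975, plus strand, GRCm38.p6), and capitals mark the element.
Cdkn1a: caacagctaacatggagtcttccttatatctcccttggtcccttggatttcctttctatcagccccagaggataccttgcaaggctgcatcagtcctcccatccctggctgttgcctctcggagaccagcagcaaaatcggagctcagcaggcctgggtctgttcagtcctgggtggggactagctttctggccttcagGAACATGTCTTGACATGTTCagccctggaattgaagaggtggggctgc
The element was searched by name as 2 adjoining blocks of 10 bases with the 4 central bases of each block kept and at most 1 mismatch elsewhere, a pattern that reads the same on both strands. It spans bases 51 to 32 before the upstream RefSeq start. Only 18 of 32851 RefSeq windows of this length (0.0548%) hold such a match, and none of the other 9 windows of these genes did, that of the downstream Cdkn1a start included. The deposited table sums the transcripts of a gene, so the use of either start cannot be read from it. The FOXO motif GTAAACA, searched on both strands, was found in the upstream window of Ccnd3 and in none of the other 9 windows, that of Cdkn1b included; it occurs in 3.65% of all windows.

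Cdkn1c (chromosome 7, 143458339 to 143461050, minus strand), an imprinted gene whose product p57 acts mostly in differentiating tissues, was at 6.90, 6.58 and 6.04 CPM in siCtrl and at 6.53, 8.29 and 6.65 CPM in siRSL24D1. The groups overlapped, and the highest value was that of siRSL24D1 2. The log2 fold change was 0.14 with a 95% interval of -0.12 to 0.41 (edgeR adjusted p = 0.36), and it was -0.05 (adjusted p = 0.72) without siCtrl 3 and siRSL24D1 2. A rise of about 1.3-fold or a small fall would both lie within that interval.

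Within the CIP/KIP pool the share of Cdkn1a was higher and that of Cdkn1b lower in siRSL24D1. Per kilobase, the 3 inhibitors summed to 30.1, 29.3 and 29.3 in siCtrl and to 29.4, 30.5 and 29.0 in siRSL24D1, values that overlapped. Cdkn1a made up 44.7%, 43.7% and 46.9% of the sum in siCtrl and 60.4%, 58.9% and 60.8% in siRSL24D1, and Cdkn1b 44.0%, 45.3% and 43.0% against 28.7%, 27.8% and 27.9%. With the longest transcript as the length the sums no longer overlapped, at 39.3 ± 0.64 in siCtrl and 42.5 ± 0.90 in siRSL24D1, so the overlap of the sums depends on the length chosen. By that length Cdkn1a made up 58.1 ± 1.62% in siCtrl and 71.5 ± 0.92% in siRSL24D1, and Cdkn1b 33.2 ± 1.15% and 19.6 ± 0.30%. The ratio of Cdkn1a to Cdkn1b counts was 0.754 to 0.852 in siCtrl and 1.64 to 1.70 in siRSL24D1, a 2.09-fold difference (two-sided exact permutation p = 0.1, the smallest possible). Ccnd1 to Cdkn1b differed by almost as much, from 1.77 to 1.92 in siCtrl to 3.60 to 3.95 in siRSL24D1 (2.07-fold, p = 0.1 by the same exact test).

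The INK4 inhibitors were the least abundant class. Cdkn2d (chromosome 9, 21288410 to 21291407, minus strand) encodes p19-INK4d, a protein whose level follows the cell cycle. It was at 11.3, 11.4 and 11.0 CPM in siCtrl and at 9.08, 9.35 and 8.06 CPM in siRSL24D1, with no overlap and siRSL24D1 3 the lowest. Cdkn2d fell to 0.785 of its control level (log2 fold change -0.35, standard error 0.08, edgeR adjusted p = 0.0087).

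Cdkn2c (chromosome 4, 109660876 to 109667189, minus strand), which encodes p18-INK4c, was at 0.817, 1.08 and 1.08 CPM in siCtrl and at 0.701, 1.28 and 0.602 CPM in siRSL24D1. It rests on 99 estimated counts in all for siCtrl and 87 for siRSL24D1, and siRSL24D1 2 lay above every siCtrl library while siRSL24D1 1 and 3 lay below. The log2 fold change was -0.19 with a 95% interval of -0.89 to 0.50 (edgeR adjusted p = 0.64), an interval that includes a fall of the size seen for Cdkn1b. Without siRSL24D1 3 the estimate was 0.01.

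Ordered by level per kilobase in siCtrl, the genes ran Cdk4 (102.9 ± 5.36), Ccnd1 (23.2 ± 0.32), Cdkn1a (13.4 ± 0.48), Cdkn1b (13.1 ± 0.39), Ccnd3 (9.56 ± 0.08), Cdkn2d (7.14 ± 0.14), Cdk6 (4.83 ± 0.53), Cdkn1c (3.19 ± 0.21), Ccnd2 (2.10 ± 0.25) and Cdkn2c (0.369 ± 0.057). Cdkn1a and Cdkn1b did not differ beyond their spread there, by the length of annotated exons. In siRSL24D1 they did, at 17.8 ± 0.15 and 8.34 ± 0.20, while Cdkn1b and Ccnd3 (7.91 ± 0.44) overlapped. Ccnd2 moved from place 9 to place 7 of the 10, at 5.72 ± 0.26 CPM per kilobase, where it could not be told from Cdk6 (5.79 ± 0.20) or Cdkn2d (5.61 ± 0.43). With the longest transcript as the length, Ccnd2 moved from place 9 to place 5, at 8.50 ± 0.39 CPM per kilobase in siRSL24D1. All its libraries there lay above those of Cdk6 (7.03 ± 0.24) and Cdkn2d (6.20 ± 0.48). By that length, Ccnd3 stood above Cdkn1b in both groups (21.8 ± 0.19 against 13.1 ± 0.39 CPM per kilobase in siCtrl). Cdkn1a, at 22.8 ± 0.83 CPM per kilobase, also lay above Cdkn1b in siCtrl by that length.

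By the smallest root mean square difference of centred log2 CPM over the 6 libraries, among the 10166 genes whose log2 CPM averaged 3 or more, the genes most like Ccnd2 were Ptprt (0.068), Tmtc3 (0.107) and Anks1b (0.124). Most like Ccnd1 were Pi4kb (0.019), Sgsm2 (0.022) and Wnt9a (0.022), and most like Ccnd3 were Mrpl57 (0.019), Zdhhc24 (0.020) and Apool (0.025). Cdkn1a was closest to Zfp74 (0.015), Tatdn2 (0.019) and Brix1 (0.022), and Cdkn1b to Cbr4 (0.015), Hmgcs1 (0.016) and Pmvk (0.017). The closest gene to Ccnd2 was thus farther from it than the closest genes of the other 4 were from theirs. With 2 groups of 3 libraries this measure finds genes with a like difference between the groups and little else.

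Lists of genes around the cyclin D kinases are given by their counts, beside the 21.2% of all genes that rose and the 20.0% that fell; in lists this short, counts near those shares are no result about the list. In the next step of the cycle, which cyclin E and cyclin A carry out with CDK2, 1 of 6 tested genes rose and 1 fell (median log2 fold change -0.10). Ccna2, cyclin A2, fell from 237.3 ± 1.97 to 204.2 ± 2.43 CPM (log2 fold change -0.22), and Ccne2 rose by 0.20, a call that did not hold in the DESeq2 test (adjusted p = 0.052) or when siCtrl 2, siCtrl 3 or siRSL24D1 3 was left out (0.053 to 0.080). Ccne1 was at -0.09 (adjusted p = 0.23), or -0.19 (adjusted p = 0.0020) without both siCtrl 3 and siRSL24D1 2, which made 3 genes lower, and Cdk2 at -0.03 (adjusted p = 0.63).

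Of 13 tested pocket protein and E2F genes, 4 rose and 3 fell (median 0.10). The pocket proteins, that is the retinoblastoma protein and its relatives, are the targets of the cyclin D kinases, and the E2F factors act downstream of them. Rb1, which encodes the retinoblastoma protein, was at 20.8, 23.6 and 24.6 CPM in siCtrl and at 33.7, 30.1 and 36.3 CPM in siRSL24D1, a log2 fold change of 0.54 (edgeR adjusted p = 0.0019). Its relative Rbl2 (p130) rose by 0.38, or by 0.28 to 0.41 with an adjusted p of 0.052 to 0.090 when siCtrl 1, siCtrl 2, siRSL24D1 1 or siRSL24D1 3 was left out. E2f1, an activating E2F, fell from 18.6 ± 0.90 to 13.0 ± 1.47 CPM (log2 fold change -0.52, adjusted p = 0.0024). The number that fell was 1 with library totals and without siCtrl 1, siCtrl 2, siRSL24D1 2 or siRSL24D1 3, and 7 rose without both siCtrl 3 and siRSL24D1 2.

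Genes that activate or fold the kinases were split as well, with 1 of 6 higher and 2 lower (median -0.06). Cdk7, the kinase that activates other CDKs, rose by 0.24. Mnat1, its assembly factor, fell by 0.21 and the chaperone gene Hsp90aa1 fell by 0.17 on the log2 scale. The number that fell was 1 without siCtrl 1, siRSL24D1 1 or siRSL24D1 3, 0 without siCtrl 2 and 4 without both siCtrl 3 and siRSL24D1 2.

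Of 16 tested genes for the turnover of cyclin D and CIP/KIP proteins, 2 rose and 3 fell (median 0.01). Fbxw7, the substrate receptor for cyclin E among others, rose from 40.5 ± 3.81 to 62.3 ± 1.89 CPM (log2 fold change 0.62, edgeR adjusted p = 0.00032). Dtl, the receptor of the ubiquitin ligase that removes p21 during DNA replication, fell by 0.22 on the log2 scale, and Cul4a and Cul4b, its cullins, each fell by 0.18. Cul1, a cullin of the SCF ligases, rose by 0.11, but its call was lost under 14 of 19 alternatives, among them those that leave out siCtrl 1, siCtrl 2, siRSL24D1 2 or siRSL24D1 3, where 1 gene was higher. Skp2, the receptor through which p27 is degraded, averaged 54.3 CPM with siCtrl against 57.7 with siRSL24D1 (log2 fold change 0.09, adjusted p = 0.13), and with library totals its 0.11 passed the test (adjusted p = 0.049). Without both siCtrl 3 and siRSL24D1 2 the number that fell was 6.

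Among 14 transcription factor genes that act on the cyclins and inhibitors, 6 rose and 1 fell (median 0.21). Jun, an AP-1 subunit, was at 24.9, 25.8 and 27.7 CPM in siCtrl and at 40.2, 46.7 and 44.4 CPM in siRSL24D1, a log2 fold change of 0.74 (edgeR adjusted p = 0.00014). Lef1, a factor of the Wnt pathway, rose by 0.69, although its libraries overlapped (10.9 CPM in siCtrl 3 and 10.4 CPM in siRSL24D1 2) and its call did not hold when siCtrl 1, siCtrl 2, siRSL24D1 1 or siRSL24D1 3 was left out (0.55 to 0.65, adjusted p = 0.078 to 0.099). Mycn rose by 0.54, Myc by 0.53 and Foxo3 by 0.45. Foxo4, a relative of Foxo3 with a part in the control of Cdkn1b, was the 1 that fell (log2 fold change -0.15, adjusted p = 0.049); that call was lost with library totals, in the DESeq2 test and when siCtrl 1, siCtrl 2, siRSL24D1 1 or siRSL24D1 3 was left out, and 2 genes fell without siCtrl 3.

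**Figure D5:**
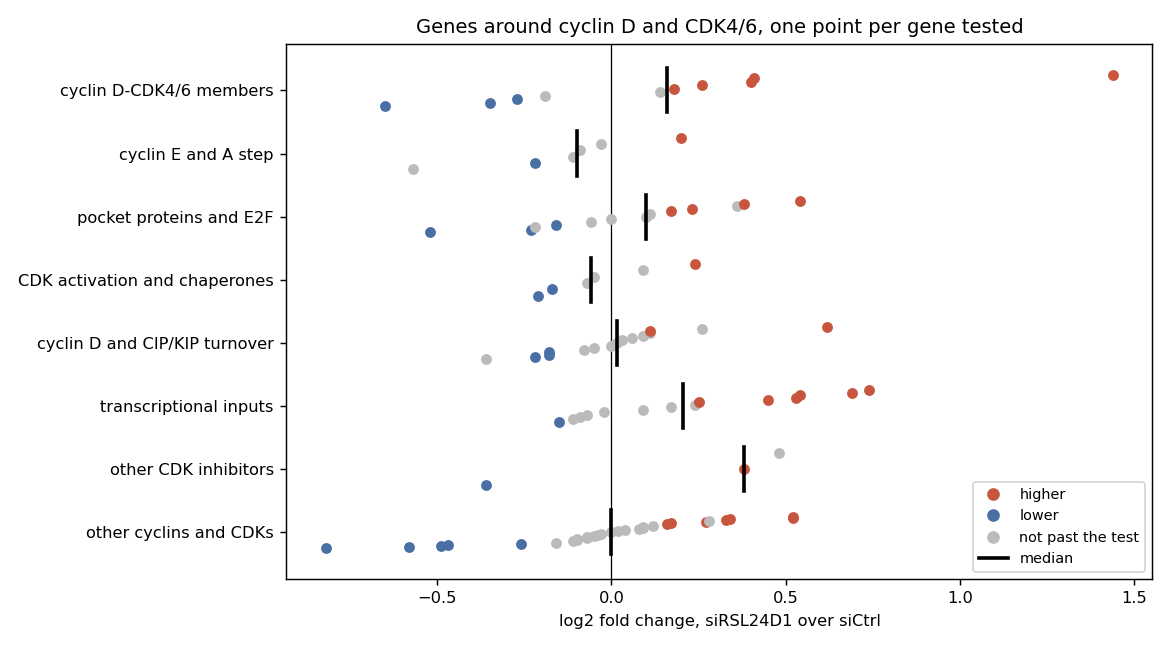
Log2 fold change, siRSL24D1 over siCtrl (x axis), of every tested gene of the 10 cyclin, kinase and inhibitor genes and of 7 lists around them; each point is a gene, coloured by its call, and the black line is the list's median. Medians run from -0.10 to 0.38, and every list has calls in both directions.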

How the data were processed

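The deposited table holds the authors' estimated counts for each gene symbol, unscaled; between 21.59% and 22.65% of a library's values are not whole (tolerance 1e-09). Per the submitters' processing notes, STAR 2.7.0f and Salmon 0.14.1 were used with build GRCm38; for their roles, the annotation, filters and strand setting no statement is given in the sources used here. The tests had been planned for counts, so values were rounded first. All 6 columns were used. After filterByExpr with a minimum count of 10 and a minimum total of 15, 15084 genes were left; libraries were scaled by TMM and compared by the two-sided quasi-likelihood test of edgeR 4.0.16 (R 4.3.3) with Benjamini-Hochberg adjustment over all genes tested and a threshold of 0.05. CPM are relative to TMM-scaled totals; standard errors are the log2 fold change over the root of F. Exon lengths and positions are from GENCODE M21 (GRCm38). The edgeR fit was also tested on simulated data. Intervals and p-values measure the spread between these libraries only.

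The members and lists were chosen with earlier results of these data known. The text names all 10 members, Rsl24d1 and, in each list other than the marker lists, up to 3 called genes of largest change. It also names the 3 genes most alike (pseudocount 0.5, average log2 CPM of at least 3) for 5 members. Other named genes, the markers among them, were chosen after their values were seen. Alternatives were DESeq2 1.42.0 size factors and its Wald test, library totals, upper-quartile scaling, 2 other filters, limma-voom (limma 3.58.1), a replicate block, a length correction, an adjusted p under 0.01 and leaving out each library; unrounded values and leaving out siCtrl 3 with siRSL24D1 2 were added after seeing the data.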

Additional observations from a re-analysis of the deposited data

How the results depend on the processing

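Ccnd1, Ccnd2, Ccnd3, Cdkn1a, Cdkn1b and Cdkn2d kept their direction and their call under all 19 alternatives run, and Cdkn1c and Cdkn2c were never called. Log2 fold changes ranged over 0.35 to 0.44 for Ccnd1, 1.38 to 1.56 for Ccnd2, -0.33 to -0.23 for Ccnd3, 0.38 to 0.44 for Cdkn1a, -0.70 to -0.62 for Cdkn1b and -0.43 to -0.29 for Cdkn2d. Those of Cdk4 (0.08 to 0.21) and Cdk6 (0.15 to 0.36) stayed positive, but the calls were lost under 7 and 5 alternatives, the threshold of 0.01 and those given beside those genes; the cause was not tested. With single libraries left out, Cdkn1c ranged up to 0.20 and Cdkn2c from -0.61 to 0.01 (without siRSL24D1 3), and Cdk2 reached 0.01 (without siCtrl 1). Without siCtrl 3 and siRSL24D1 2, Cdkn1c was at -0.05 and Cdk2 at -0.07. None of these was called. The number of these genes that rose was 3 to 4 when a single library was left out (3 without siCtrl 2 or without siRSL24D1 3) and the number that fell was 3 each time. At an adjusted p under 0.01, 3 rose and 3 fell, and over all genes 1886 rose and 1867 fell, since the threshold is stricter.

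Over all genes, 2210 to 3356 rose and 2147 to 3285 fell when a single library was left out, and 3986 rose and 4008 fell without siCtrl 3 and siRSL24D1 2. The median log2 fold change of all genes moved between -0.013 and 0.039 over the scalings. With the replicate number as a block, 3327 genes rose and 3104 fell, the calls of the 10 genes were the same, and of 3 other CDK inhibitor genes 2 rose in place of 1, as did 2 fibroblast markers in place of 1. Same-numbered libraries correlated at -0.218, 0.144 and 0.168 in their deviations from the group means. Deviations from a mean of 3 libraries depend on each other, and siCtrl 3 and siRSL24D1 2 stood apart. These values therefore cannot decide whether the numbers pair the libraries, and the labels do not say. Cdkn2c has the fewest estimated counts of the 10 genes, 99 and 87 per group.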

Other observations

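Other cyclins and cyclin-dependent kinases, which act in mitosis, transcription or stress, were spread around 0: of 29 tested genes, 7 rose and 5 fell, at a median log2 fold change of 0.00. Ccng1, cyclin G1, a p53 target, rose from 844.7 ± 22.1 to 1213 ± 72.2 CPM (log2 fold change 0.52, edgeR adjusted p = 0.00021), and its relative Ccng2, cyclin G2, a cyclin of resting cells, fell from 55.9 ± 2.07 to 31.6 ± 2.14 CPM (log2 fold change -0.82, adjusted p = 5.4e-05). Ccni, cyclin I, fell by 0.58 on the log2 scale. Cdk1, the kinase of mitosis, fell from 239.5 ± 9.11 to 170.4 ± 5.30 CPM (log2 fold change -0.49), and Cdk14, which pairs with membrane-bound cyclin Y, rose by 0.52. Of 3 other CDK inhibitor genes tested, Cdkn2b, which encodes the INK4 inhibitor p15, rose from 8.69 ± 0.91 to 11.3 ± 0.94 CPM (log2 fold change 0.38, adjusted p = 0.018). That call was lost when siRSL24D1 2 or siRSL24D1 3 was left out (adjusted p = 0.055 and 0.052) or both siCtrl 3 and siRSL24D1 2 were (0.070). Cdkn3, a phosphatase gene that bears the name of an inhibitor, fell by 0.36. Cdkn2a was at 3.54 ± 0.65 and 4.91 ± 1.19 CPM and was not called (log2 fold change 0.48, edgeR adjusted p = 0.088). With the replicate block, the length correction or both, 2 of the 3 genes rose.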
